A study of Homo sapiens with 8 samples.

Results

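The genes described here are 10 cytokine genes that epithelial cells can express: IL6, IL11, LIF, IL1A, IL1B, CXCL8, CXCL1, CSF2, TNFSF10 and PTHLH. They were chosen by name, 10 of 19970 protein-coding genes, and their surroundings were followed in chromatin accessibility data from MCF10A cells, an immortalised and non-tumorigenic human mammary epithelial line. ATAC-seq, in which a transposase inserts sequencing adapters into open chromatin, was carried out on 8 libraries of wild-type MCF10A cells. They fall into 4 groups of 2 libraries, namely solvent (bovine serum albumin in PBS) and 6, 24 or 72 h of recombinant human TGFβ1 at 5 ng/ml, and both agents were renewed in the longer treatments. All groups shared a medium with horse serum, EGF, hydrocortisone, cholera toxin and insulin. The labels put the solvent samples at 0 h of TGFβ1, and in the experimental set-up the solvent plate was exposed to solvent for 72 h. The cells are 1 established line without stromal or immune partners, and this limits them as a model of cytokine signalling in the breast.

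IL6, IL11 and LIF signal through receptors that share the subunit gp130, encoded by IL6ST. IL1A and IL1B act through IL1R1, CXCL8 and CXCL1 attract neutrophils through CXCR1 and CXCR2, CSF2 (GM-CSF) drives myeloid cell growth, TNFSF10 (TRAIL) binds death receptors, and PTHLH (PTHrP) acts on PTH1R in mammary development and in bone. Several of these genes are classical targets of NF-κB, C/EBP and AP-1 transcription factors, and regulatory elements of such genes can lie at the transcriptional start site (TSS) or many kilobases away.

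The data are 4 peak lists, 1 for each condition, called on both replicates together, so there is no value per replicate, no test was possible and no spread can be set beside a difference. The lists were merged where peaks shared at least 1 bp, which gave 126658 regions. A region was assigned to a cytokine gene when it overlapped the gene body extended by 50 kb on either side (GENCODE 44, GRCh38). This gave 151 regions, of which 62 were proximal (within 3 kb of any TSS) and 89 distal, a proximal share of 41.1% against 34.4% for all regions. The windows held between 6 regions (IL6) and 27 (LIF), with a median of 10 regions over all protein-coding genes. IL1A and IL1B are neighbours, and 15 regions lie in both of their windows. For 50 of the 151 regions the nearest protein-coding TSS belonged to a gene outside the 10. Peak strength is given as AUC, which the peak caller takes from the significance curve over the peak, and the smallest AUC in any list was 200, the authors' threshold. AUC was summed over a region, and each TGFβ1 list was divided by its median ratio to solvent at proximal regions, a log2 shift of 0.44, 0.38 and 0.25 in order of time. AUC values below are as deposited, and log2 ratios are after this scaling.

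Across the series the solvent list held 86209 peaks, and the TGFβ1 lists held 107656 (6 h), 118433 (24 h) and 116720 (72 h). Promoters of the 8 basal and mammary epithelial markers (KRT5, KRT14, KRT17, TP63, CDH1, LAMB3, ITGB4 and SFN) carried a peak in every list, with a summed AUC of 69687 in solvent and 129747 to 144873 after TGFβ1. Most of this rise came from LAMB3, with 33219 in solvent and 74534, 84215 and 93740 after TGFβ1. The median over the 8 markers was 5735 in solvent and 8962, 8474 and 8126 after TGFβ1, in deposited AUC. Of 4 leukocyte markers, CD14 had a promoter peak in every list and PTPRC only after TGFβ1 (AUC 515, 799 and 1059), while CD3E and CD79A had none, and the summed AUC was 5228 in solvent and 5574 to 6732 after TGFβ1. Of 3 endothelial markers PECAM1 had a peak and CDH5 and VWF had none (1351 in solvent, 1987 to 2541 after TGFβ1), and of 3 fibroblast markers COL1A1 and PDGFRB had a peak and DCN had none (4625 in solvent, 6723 to 7241 after TGFβ1). The part of other cell types in the results was not tested. In bulk samples a change in the share of cells with an open region and a change in openness per cell cannot be told apart.

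To see where the sequence of the gene starts could be read, the bases just upstream of the TSS are shown for the 5 promoters in which letters of the AP-1 motif TGANTCA or the NF-κB motif GGANTTTCC were found. Sequences run 5′ to 3′ on the strand of the gene, from hg38, and end at the TSS or at the untranslated exon. Capitals mark matches to these motifs, to the C/EBP motif TTNNGCAA, the SMAD motif GTCTNGAC, the TEAD motif GGAATG and the E-box CACCTG, searched on both strands. None of these matches overlapped another in the printed windows.
CXCL8 promoter, chr4:73740319-73740518, plus strand: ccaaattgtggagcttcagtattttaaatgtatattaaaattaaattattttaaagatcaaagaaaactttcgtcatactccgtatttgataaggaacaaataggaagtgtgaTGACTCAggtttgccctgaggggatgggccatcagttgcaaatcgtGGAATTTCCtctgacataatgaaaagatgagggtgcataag
CXCL1 promoter, chr4:73869143-73869392, plus strand: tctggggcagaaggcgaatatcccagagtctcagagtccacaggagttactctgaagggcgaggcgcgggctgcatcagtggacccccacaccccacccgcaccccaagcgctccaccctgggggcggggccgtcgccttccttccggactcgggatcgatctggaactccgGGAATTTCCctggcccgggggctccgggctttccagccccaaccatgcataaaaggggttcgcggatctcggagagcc
IL6 promoter, chr7:22726950-22727146, plus strand: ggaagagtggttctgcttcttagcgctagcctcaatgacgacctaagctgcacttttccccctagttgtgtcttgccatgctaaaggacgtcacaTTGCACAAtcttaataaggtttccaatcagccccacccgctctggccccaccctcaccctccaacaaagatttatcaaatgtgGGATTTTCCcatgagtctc
IL11 promoter, chr19:55370464-55370713, minus strand: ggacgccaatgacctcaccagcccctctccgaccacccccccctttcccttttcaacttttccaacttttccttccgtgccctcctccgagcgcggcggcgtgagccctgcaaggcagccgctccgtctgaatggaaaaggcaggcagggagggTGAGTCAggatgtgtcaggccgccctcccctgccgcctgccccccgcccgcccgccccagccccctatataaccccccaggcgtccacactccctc
IL1A promoter, chr2:112784494-112784743, minus strand: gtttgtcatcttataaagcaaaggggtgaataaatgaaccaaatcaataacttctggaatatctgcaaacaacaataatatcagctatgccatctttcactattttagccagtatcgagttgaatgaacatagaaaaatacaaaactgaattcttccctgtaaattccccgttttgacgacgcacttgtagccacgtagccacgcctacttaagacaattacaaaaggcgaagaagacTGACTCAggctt
CXCL8 held TGACTCA 137 bp and GGAATTTCC 91 bp upstream of its TSS. CXCL1 held the same NF-κB letters 78 bp upstream. IL6 held GGATTTTCC at 72 bp and the C/EBP letters TTGCACAA, on the opposite strand, at 155 bp. IL11 held TGAGTCA at 96 bp and IL1A held TGACTCA at 12 bp. IL1B held C/EBP letters 215 bp upstream, and in the upstream windows of LIF, CSF2, TNFSF10 and PTHLH no match was found. The PTHLH window lies before the canonical TSS, on which no peak lay. The bases before the other PTHLH start, which RefSeq uses, were not examined separately. Over 35116 RefSeq promoters, the 250 bases before the start held the AP-1 letters in 6.57%, the NF-κB letters in 1.45% and the C/EBP letters in 9.05%, and the windows printed here are of that length or shorter. A match describes the letters and says nothing of binding.

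The promoters of the cytokine genes were already accessible in solvent, and after scaling most differed little from solvent. The scaling sets the median log2 ratio of all proximal regions to 0.00 at each time. Small promoter ratios therefore mean little difference from other proximal regions, and an absolute change cannot be read from them. In deposited AUC, each of these promoters lay above solvent in every TGFβ1 list. Each member had a region over or within 1 kb of its canonical TSS, with a peak in all 4 lists, and the region on or nearest to the TSS is taken as its promoter. The median log2 ratio of these 10 regions was 0.07, 0.10 and 0.20 in order of time, and 9, 6 and 9 of them lay above 0. Among these 10 regions only that of IL11 had a ratio at or above 0.5 in size. A second region within 1 kb of the LIF TSS, in the LIF intron, had -0.78 at 24 h and -0.71 at 72 h. IL1A also had a second region, 681 bp past its TSS, without a peak in solvent or at 6 h. Its AUC was 237 at 24 h and 270 at 72 h. The second region at CXCL1 had log2 ratios of 0.00, 0.21 and 0.27, and that of PTHLH is given below. The IL11 promoter region (chr19:55368905-55371013) had an AUC of 2502 in solvent, then 4829, 5523 and 4664 over time. All 3 TGFβ1 lists thus stood above solvent, with log2 ratios of 0.51, 0.76 and 0.65.

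The other promoters are given in the order of their signalling families. The IL6 promoter (chr7:22726285-22727607) had an AUC of 2509 in solvent and 3535, 3604 and 3298 after 6, 24 and 72 h. It was the strongest of the 6 regions at IL6 in solvent, and its log2 ratios were 0.05, 0.14 and 0.15. The LIF promoter (chr22:30246441-30246900) was weak, with AUC values of 375, 567, 388 and 530 in the 4 lists. Its ratio lay below solvent at 24 h (-0.33) and above at 72 h (0.25), so it had no steady direction.

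The IL1A promoter (chr2:112784141-112784636) had AUC values of 729, 1020, 1018 and 990. The IL1B promoter (chr2:112836403-112837310) had AUC values of 1533, 2225, 2144 and 2534, with log2 ratios of 0.10, 0.10 and 0.48. Among promoters without IL11, the ratio of IL1B at 72 h was the highest. The CXCL8 promoter (chr4:73740362-73740810) was the only promoter below solvent in all 3 TGFβ1 lists after scaling. Its AUC was 1692 in solvent and 1987, 1908 and 1885 thereafter, and its log2 ratios were -0.21, -0.21 and -0.09. Without scaling the deposited values of CXCL8 were above solvent, so this direction depends on the scaling.

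The CXCL1 promoter (chr4:73867826-73870038) had AUC values of 3819, 5212, 4808 and 5487, with log2 ratios of 0.01, -0.05 and 0.28. It held 54.5% of the summed signal around CXCL1 in solvent and 35.5% at 72 h, as the window around it filled with other peaks. The CSF2 promoter (chr5:132073084-132075691) had AUC values of 4868, 6613, 5647 and 5976. After scaling it was close to solvent, with log2 ratios of 0.00, -0.17 and 0.05. The TNFSF10 promoter (chr3:172523157-172523815) had AUC values of 1177, 1824, 1795 and 1613 and log2 ratios of 0.19, 0.23 and 0.21.

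PTHLH differed from the rest in the place of its promoter signal. No peak lay on its GENCODE canonical TSS, and the nearest region ended 774 bp away with AUC values of only 232, 336, 422 and 304. A stronger region within the gene (chr12:27968946-27970640) covered another annotated PTHLH start, which is the start RefSeq uses and lies 2757 bp from the canonical TSS. Its AUC was 2588 in solvent and 4057, 4339 and 3428 after 6, 24 and 72 h. The log2 ratios of this alternative promoter were 0.21, 0.37 and 0.16, all above solvent and below 0.5.

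Around the promoters, peaks became more numerous after TGFβ1. Of the 151 regions, 104 had a peak in solvent and 129, 141 and 141 in the 3 TGFβ1 lists in turn, which is 1.24, 1.36 and 1.36 times the solvent number, against 1.29, 1.41 and 1.38 times for all merged regions. Regions gained against solvent, that is with a peak in the TGFβ1 list and none in solvent, numbered 25 of 129 at 6 h (19.4%, 95% Wilson interval 13.5 to 27.0), 38 of 142 at 24 h (26.8%, 20.2 to 34.6) and 38 of 142 at 72 h (26.8%, 20.2 to 34.6). The same share over all merged regions was 22.9%, 29.8% and 29.3%, so the cytokine genes gained peaks about as often as the genome at large. Lost regions numbered 0 of 104 at 6 h, which allows up to 3.56%, and 1 of 104 (0.962%) at both later times, beside 0.714%, 1.86% and 3.44% of all regions. The lost region was a weak peak 6319 bp upstream of IL11, with an AUC of 208 in solvent and 279 at 6 h. The intervals cover counting error only.

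Among regions with a peak in both lists, 5 of 104 were at least 2-fold higher than solvent at 6 h (4.81%), 6 of 103 at 24 h (5.83%) and 8 of 103 at 72 h (7.77%). The background was 3.45%, 8.37% and 10.5% of shared regions. Regions at least 2-fold lower numbered 0 of 104, 2 of 103 and 2 of 103 (1.94%), beside 0.215%, 0.935% and 1.23% of all shared regions. All these background shares lay inside the intervals of the cytokine genes. The shares of gained, lost, higher and lower regions, drawn side by side with those of all regions, show the overlap at each time.

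**Figure D1:**
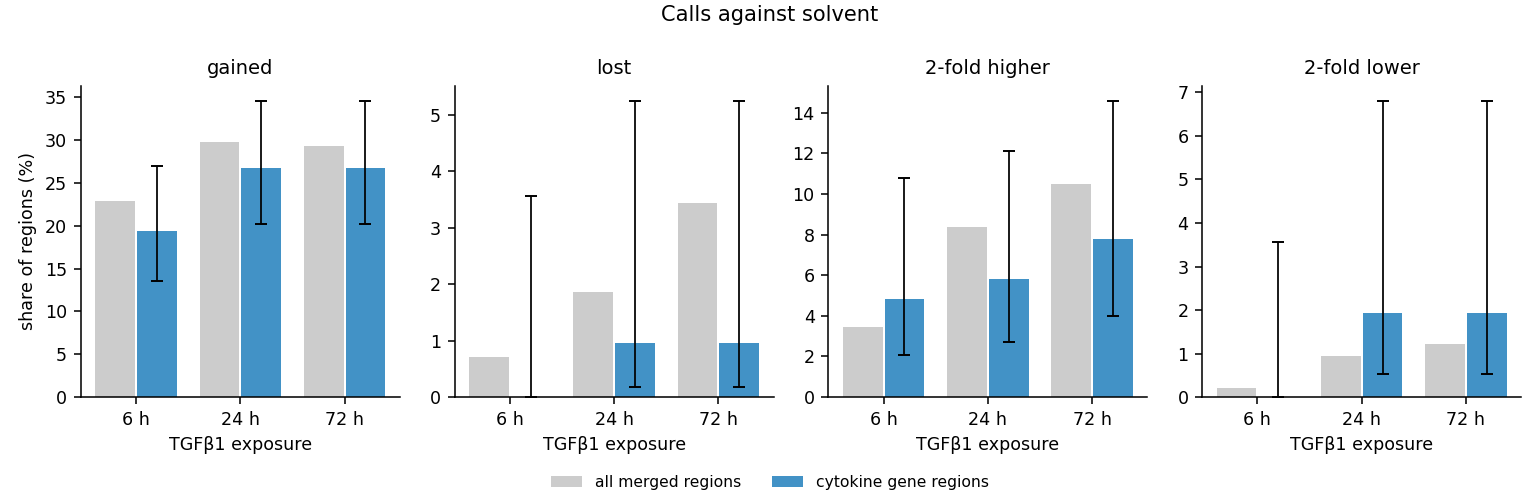
Share of regions (%) gained, lost, 2-fold higher and 2-fold lower than solvent at 6, 24 and 72 h of TGFβ1, in blue for regions at the 10 cytokine genes with 95% Wilson intervals and in grey for all merged regions. The vertical scale differs between panels, and every grey bar ends within the interval beside it, for instance 29.3% against 26.8% for regions gained at 72 h.

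After scaling, the shared regions of the cytokine genes had a median log2 ratio of 0.08, 0.11 and 0.25 in order of time, against 0.06, 0.12 and 0.15 for all shared regions. Without scaling the medians of the cytokine genes were 0.52, 0.49 and 0.50, so their rise over time depends on the smaller shift taken off the 72 h list. The same shift is taken off all regions of a list, so it does not alter the difference from all shared regions at a given time. At 72 h, 50 of 59 distal regions (84.7%) lay above solvent, beside 73.3% of all distal regions, and the distal median was 0.36 against 0.27. Of the 103 regions with a peak in all 4 lists, 76 (73.8%) were higher at 72 h than at 24 h, whereas 58.0% of all such regions were. In deposited AUC these shares were 44.7% and 28.4%. The step from solvent to 6 h, after scaling, gave 60.2% against 60.1%. Of the 151 regions, 20 were absent in solvent and present in all 3 TGFβ1 lists (13.2%, beside 14.3% of all regions), 9 appeared at 24 h and stayed at 72 h (5.96%, beside 7.55%), and 8 were listed at 72 h only (5.3%, beside 4.61%). Each of these shares was near that of all regions.

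**Figure D2:**
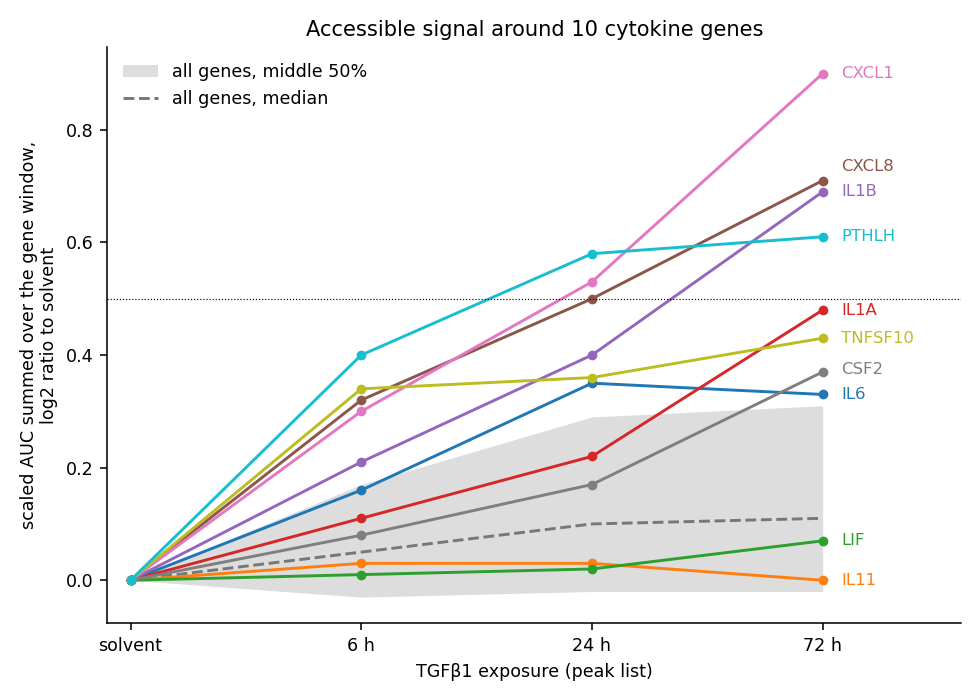
Scaled AUC summed over the window of each cytokine gene, as log2 ratio to solvent, for solvent and 6, 24 and 72 h of TGFβ1, with 1 line per gene. The grey band holds the middle 50% of 18792 protein-coding genes and the dashed line is their median (0.11 at 72 h). CXCL1 reaches 0.90 and CXCL8, IL1B and PTHLH lie above the dotted line at 0.5, while LIF and IL11 stay inside the band.

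Summed over each gene's window, accessible signal was higher than in solvent for most members, and after scaling 8 of the 10 sums were higher at 72 h than at 24 h. Without scaling 5 were, and IL6, IL11, LIF, PTHLH and TNFSF10 were not, so the course over time depends on the scaling. The median log2 ratio of the 10 sums was 0.18, 0.36 and 0.46 in order of time, against 0.05, 0.10 and 0.11 over the 18792 protein-coding genes with a region in solvent. None of the 10 reached 0.5 at 6 h, 2 did at 24 h (CXCL1 and PTHLH, with CXCL8 just under it) and 4 did at 72 h (CXCL1, CXCL8, IL1B and PTHLH). The shares over all genes were 5.65%, 12.7% and 14.1%. No gene reached 0.5 at 24 h with scaling at all shared regions or with lists of equal length. None of the 10 lay at or below -0.5, beside 0.0745%, 0.0905% and 0.255% of all genes. A region without a peak counts as 0 in these sums. With the threshold AUC of 200 put in its place, no gene reached 0.5 at 24 h (CXCL1 0.19, PTHLH 0.38), and the ratios at 72 h became 0.51 for CXCL1, 0.52 for CXCL8, 0.59 for IL1B and 0.41 for PTHLH. In order of the 72 h ratio the genes were CXCL1, CXCL8, IL1B, PTHLH, IL1A, TNFSF10, CSF2, IL6, LIF and IL11. Without replicates, no neighbours in this order can be called different.

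CXCL1 and CXCL8, the neutrophil chemokines, had the highest sums at 72 h relative to solvent when an absent peak counts as 0. With the threshold in its place IL1B was first, and with a window of 20 kb PTHLH was (0.97). The window of CXCL1 (ENSG00000163739, chr4:73869393-73871308) had a summed AUC of 7005 in solvent and 11727, 13203 and 15468 after TGFβ1, with log2 ratios of 0.30, 0.53 and 0.90. This was the 94.5th percentile of all genes at 72 h. Of its 17 regions only 5 had a peak in solvent and 15 had one at 72 h, and the regions absent in solvent carried 27.9% of the scaled signal at that time. The CXCL8 window (ENSG00000169429, chr4:73740519-73743716) had a summed AUC of 7106, 12076, 13040 and 13776 and log2 ratios of 0.32, 0.50 and 0.71. All 14 of its regions had CXCL8 as their nearest coding gene, and those absent in solvent carried 17.6% of the signal at 72 h. Its higher sum came from outside the promoter, whose own ratio was -0.09 at that time.

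IL1B and IL1A, the interleukin-1 genes, shared 15 regions, so their values are not independent. The IL1B window (ENSG00000125538, chr2:112829751-112836816) had a summed AUC of 17318 in solvent and 27181, 29824 and 33216 thereafter, with log2 ratios of 0.21, 0.40 and 0.69. Here 15 of the 16 regions with a peak in both lists lay above solvent at 72 h, beside 63.9% of all such regions in the series. Regions absent in solvent carried 6.78% of the signal, so the difference lay mostly in regions that were already open. The IL1A window (ENSG00000115008, chr2:112773925-112784493) had sums of 19114, 28095, 29067 and 31646 and log2 ratios of 0.11, 0.22 and 0.48, and 16 of its 17 shared regions were above solvent at 72 h. A shared element, 27692 bp upstream of IL1A and 24594 bp downstream of the IL1B start, went from an AUC of 1236 to 2302, 2511 and 3099 (log2 1.08 at 72 h) and was chosen after its values were seen.

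PTHLH had a difference by 6 h that rested largely on regions absent in solvent. Its window (ENSG00000087494, chr12:27958084-27972733) had a summed AUC of 9320 in solvent and 16747, 18108 and 16860 at 6, 24 and 72 h, with log2 ratios of 0.40, 0.58 and 0.61. At 6 h this was the 92.0th percentile of all genes and the highest of the 10. With the threshold AUC in place of absent peaks it was 0.22 at 6 h, below TNFSF10 (0.31), and with the largest peak of each region it was 0.51, below CXCL1 (0.55). It also came below CXCL8 with a window of 100 kb and below IL11 with only the nearest regions. Under the other alternatives it was highest or level with TNFSF10, for instance 0.64 with a window of 20 kb and 0.85 with AUC per base. Of its 13 regions, 6 had a peak in solvent and 12 already had one at 6 h. Regions absent in solvent carried 23.2% of the scaled signal at 6 h and 32.3% at 72 h, while the 6 shared regions had a median log2 ratio of only 0.15 at 72 h. TNFSF10 (ENSG00000121858, chr3:172505508-172523475) also had most of its difference by 6 h, with sums of 15045, 25951, 25152 and 24113 and log2 ratios of 0.34, 0.36 and 0.43.

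IL6 and CSF2 were intermediate among the 10 genes. The IL6 window (ENSG00000136244, chr7:22725884-22732002) had sums of 5727, 8685, 9529 and 8546, with log2 ratios of 0.16, 0.35 and 0.33. All 5 of its shared regions were above solvent at each time, beside 59.1%, 62.5% and 63.9% of all shared regions in order of time. A region 30330 bp upstream, in an intron of STEAP1B, reached a ratio of 1.19 at 24 h and 1.03 at 72 h (AUC 291, 614, 867 and 707). The CSF2 window (ENSG00000164400, chr5:132073789-132076170) had sums of 21520, 30816, 31561 and 33079, with log2 ratios of 0.08, 0.17 and 0.37. An element 21109 bp downstream of its start, the second strongest in solvent, had AUC values of 3830, 6121, 6909 and 7353 (log2 0.69 at 72 h). This element and the one upstream of IL6 were chosen after their values were seen.

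LIF and IL11 showed almost no difference in their sums, and the sign of these small ratios changed with the processing. LIF (ENSG00000128342, chr22:30240453-30246759) had sums of 30842, 42104, 40720 and 38470 and log2 ratios of 0.01, 0.02 and 0.07. Of its 20 shared regions 13 lay above solvent at 72 h, near the 63.9% of all shared regions, and the lowest was at -1.22. IL11 (ENSG00000095752, chr19:55364382-55370463) had sums of 31623, 43722, 41886 and 37626 and log2 ratios of 0.03, 0.03 and 0.00. Only 1 of its 17 regions, the promoter, had IL11 as the nearest coding gene, and the rest lay nearest to 6 other genes such as RPL28, KMT5C and UBE2S. With only the promoter counted, the ratio of IL11 was 0.51, 0.76 and 0.65. The window sum of IL11 thus mainly describes its neighbours.

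**Figure D3:**
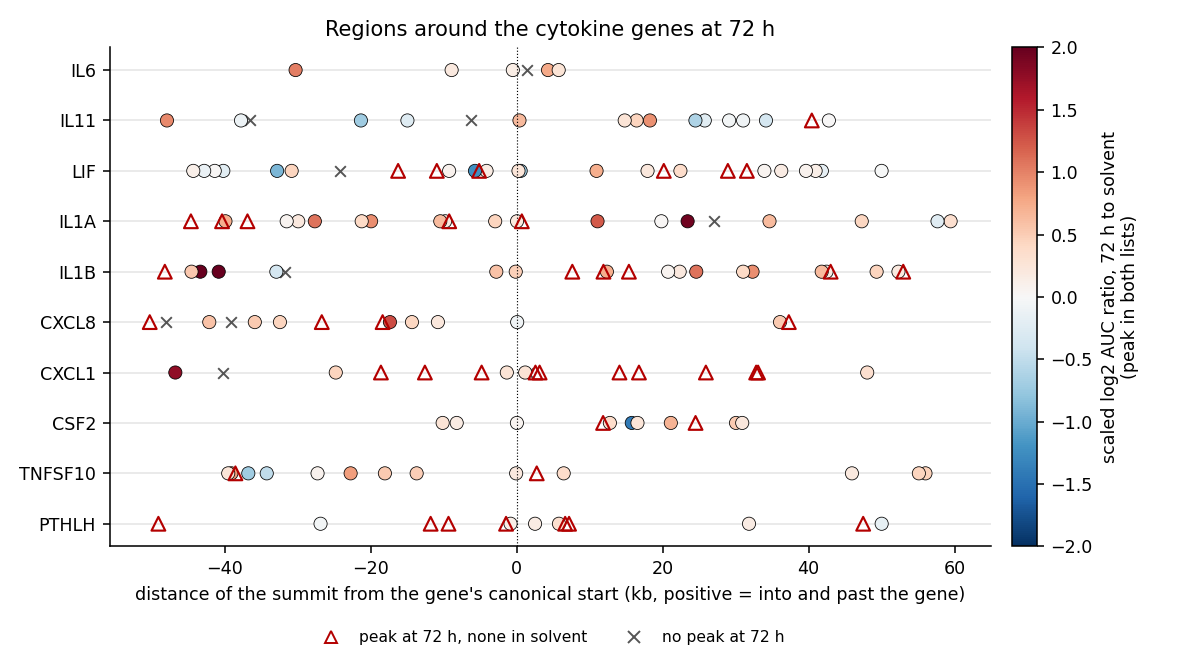
Regions around the 10 cytokine genes by distance of the summit from the canonical start (kb, positive into and past the gene). Filled circles have a peak in solvent and at 72 h and are coloured by the scaled log2 ratio at 72 h, with the colour scale held to 2 in size; open red triangles have a peak at 72 h but none in solvent, and crosses have no peak at 72 h. CXCL1 and PTHLH carry 10 and 7 triangles, the darkest red circles lie far upstream of IL1B (log2 2.41 and 2.01) and at IL1A (1.95), and the darkest blue circles belong to CSF2 and LIF.

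The elements named here were of 3 kinds. In the first group, 5 regions were absent in solvent, present in all 3 TGFβ1 lists and had the highest AUC at 72 h of the 20 regions of that pattern. Their sequences around the summit are shown because each held the AP-1 letters TGANTCA. They are printed on the strand of the gene, with capitals for the motifs named above.
TNFSF10 summit, chr3:172520603-172520803, minus strand: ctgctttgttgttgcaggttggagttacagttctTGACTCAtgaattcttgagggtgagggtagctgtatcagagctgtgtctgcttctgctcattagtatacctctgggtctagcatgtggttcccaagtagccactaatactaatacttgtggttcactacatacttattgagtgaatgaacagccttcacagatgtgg
PTHLH summit, chr12:27982003-27982203, minus strand: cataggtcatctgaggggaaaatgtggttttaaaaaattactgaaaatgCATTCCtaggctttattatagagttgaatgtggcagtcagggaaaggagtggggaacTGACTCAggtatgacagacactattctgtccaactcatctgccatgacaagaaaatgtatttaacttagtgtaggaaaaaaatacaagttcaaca
PTHLH summit, chr12:27984451-27984651, minus strand: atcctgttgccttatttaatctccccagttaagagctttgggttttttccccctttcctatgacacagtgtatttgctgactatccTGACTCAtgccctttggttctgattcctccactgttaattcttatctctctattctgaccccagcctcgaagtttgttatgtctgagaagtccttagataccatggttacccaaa
CXCL8 summit, chr4:73722067-73722267, plus strand: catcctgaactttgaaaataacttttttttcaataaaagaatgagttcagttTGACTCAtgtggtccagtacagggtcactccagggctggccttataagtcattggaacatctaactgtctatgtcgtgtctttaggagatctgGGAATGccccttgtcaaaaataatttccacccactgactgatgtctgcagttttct
CXCL1 summit, chr4:73883360-73883560, plus strand: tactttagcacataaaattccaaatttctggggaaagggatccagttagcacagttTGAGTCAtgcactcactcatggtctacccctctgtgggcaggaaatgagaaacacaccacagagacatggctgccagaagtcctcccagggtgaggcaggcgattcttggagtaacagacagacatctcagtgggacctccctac
The region in an intron of TNFSF10 (chr3:172520335-172520924), 2727 bp past the TSS, had AUC values of 779, 1765 and 1850 in the TGFβ1 lists. The 2 PTHLH regions lay between genes, 9370 bp upstream (chr12:27981859-27982312, AUC 1049, 1770 and 1769) and 11818 bp upstream (chr12:27984320-27984688, AUC 732, 943 and 1281). The CXCL8 region lay 18402 bp upstream (chr4:73721513-73722295) with AUC values of 401, 1075 and 1195. The CXCL1 region lay 14067 bp downstream of the start (chr4:73883150-73883613) with values of 574, 804 and 1021. In deposited AUC, 4 of the 5 were highest at 72 h, and the PTHLH region nearer the gene was level between 24 and 72 h. None of the 5 has a fold change, since solvent lists no peak there.

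Over all 20 regions gained in every TGFβ1 list, 15 (75.0%) held the AP-1 letters within 100 bp of the summit, beside 51.0% of the 18085 regions of this pattern in the series. Over all 151 regions the share was 38.4%, near the 40.5% of all regions. Within the same distance of the summit, NF-κB letters were found in 5 of the 151 (3.31%, against 1.4% of all regions). These lay at LIF (2 regions), PTHLH, CXCL8 and the shared IL1A and IL1B window. The NF-κB letters printed above for the CXCL8, CXCL1 and IL6 promoters lie farther from the summits of their regions and are not counted. Of the 5 counted regions, the highest ratio at 72 h among those with a peak in solvent was 0.43, at the element 14379 bp upstream of CXCL8. The SMAD letters were found in 4 (2.65% against 1.35%), and none of these was gained in all 3 lists. For C/EBP, TEAD and E-box letters the shares were 13.2%, 14.6% and 20.5%, against 12.6%, 15.9% and 17.9%.

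In the next group, 5 regions with a peak in all 4 lists had the highest ratios at 72 h. The highest were a pair of neighbouring elements upstream of IL1B, 40871 bp (chr2:112876610-112877964) and 43390 bp (chr2:112879918-112880546) from its start, both nearer to IL37. The AUC of the first was 432 in solvent and 1587, 2597 and 2730 after TGFβ1, with log2 ratios of 1.43, 2.21 and 2.41. The AUC of the second was 300, 865, 1210 and 1433, with ratios of 1.09, 1.63 and 2.01. Both increased at every step. A region in an intron of CKAP2L, 23409 bp past the IL1A start (chr2:112760961-112761484), had AUC values of 253, 1212, 1127 and 1159 and ratios of 1.82, 1.78 and 1.95, so nearly all of its difference was present at 6 h.

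In the chemokine cluster, the element 46814 bp upstream of CXCL1 (chr4:73822410-73823076), nearest to CXCL6, had AUC values of 338, 1274, 1400 and 1381 and ratios of 1.47, 1.67 and 1.78. The element 17395 bp upstream of CXCL8 (chr4:73722868-73723345) had AUC values of 359, 995, 1151 and 1056 and ratios of 1.03, 1.30 and 1.31. It lies beside the gained CXCL8 region printed above. Within 100 bp of the summit, AP-1 letters were found in 3 of these 5 regions, the 2 chemokine elements and the IL1B element 43390 bp upstream. None of the 5 held NF-κB, C/EBP, SMAD or E-box letters there. Among regions at least 2-fold higher at 72 h, 4 of the 8 at cytokine genes held AP-1 letters, beside 58.7% of the 8364 in the series. The IL1B element 43390 bp upstream and the CXCL1 element are shown as the strongest with AP-1 letters.
IL1B summit, chr2:112880069-112880269, minus strand: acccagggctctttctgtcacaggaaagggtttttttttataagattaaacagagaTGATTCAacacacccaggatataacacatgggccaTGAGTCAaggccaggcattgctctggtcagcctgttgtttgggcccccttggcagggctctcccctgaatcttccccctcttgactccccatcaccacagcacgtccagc
CXCL1 summit, chr4:73822479-73822679, plus strand: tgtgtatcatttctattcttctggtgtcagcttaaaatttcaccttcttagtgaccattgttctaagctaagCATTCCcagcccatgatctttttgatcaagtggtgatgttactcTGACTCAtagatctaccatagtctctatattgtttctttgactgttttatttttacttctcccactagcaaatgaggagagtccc

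In the last group, 5 regions had the lowest ratios at 72 h, and 3 of them belonged to LIF. The lowest lay 15755 bp downstream of the CSF2 start (chr5:132089440-132089702), with AUC values of 523, 490, 299 and 233 and log2 ratios of -0.54, -1.19 and -1.42. An element 5735 bp upstream of LIF (chr22:30252143-30253338) was larger, with AUC values of 2121, 2034, 1477 and 1079 and ratios of -0.50, -0.90 and -1.22. Both were lower at every step.

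Near CASTOR1, 32860 bp upstream of LIF (chr22:30279116-30279868), AUC values were 986, 1521, 1202 and 623, and the ratio was 0.18 at 6 h and -0.91 at 72 h. The LIF intron 523 bp past the TSS (chr22:30246055-30246335) had values of 348, 434, 263 and 252 and a ratio of -0.71 at 72 h. A region 21374 bp upstream of IL11 and nearest to RPL28 (chr19:55391748-55391975) had values of 474, 543, 461 and 344 and ratios of -0.25, -0.42 and -0.71. A TNFSF10 element 36813 bp upstream (chr3:172559942-172560873), next in order and outside the 5, also had -0.71 at 72 h, with AUC values of 812, 1118, 509 and 589 and a lower ratio at 24 h (-1.05). Within 100 bp of the summit, 3 of the 5 regions held C/EBP letters, 4 held the E-box and none held AP-1 letters. The TNFSF10 element held both C/EBP and E-box letters. The 2 with at least 2-fold lower AUC held both, whereas over all 980 regions 2-fold lower at 72 h 27.0% held C/EBP letters, 31.8% the E-box and 13.2% AP-1 letters. Their sequences are shown for these matches.
CSF2 summit, chr5:132089444-132089644, plus strand: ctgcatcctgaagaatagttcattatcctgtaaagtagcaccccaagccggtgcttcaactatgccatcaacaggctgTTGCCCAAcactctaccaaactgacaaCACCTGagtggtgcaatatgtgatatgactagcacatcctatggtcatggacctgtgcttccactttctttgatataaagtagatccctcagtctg
LIF summit, chr22:30252394-30252594, minus strand: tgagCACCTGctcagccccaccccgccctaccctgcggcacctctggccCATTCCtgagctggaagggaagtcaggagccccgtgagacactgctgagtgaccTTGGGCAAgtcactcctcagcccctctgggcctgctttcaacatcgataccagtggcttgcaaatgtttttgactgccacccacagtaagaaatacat

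The elements above were picked for extreme ratios or for having no solvent peak, so their spread cannot be set against that of other regions. The strongest solvent region in each window was chosen without regard to its ratio. Log2 ratios at 72 h were 0.15 for IL6, -0.09 for IL11 (at KMT5C), -0.01 for LIF (50000 bp downstream of the start), 0.03 for IL1A (at CKAP2L) and 0.28 and 0.05 for CXCL1 and CSF2, whose strongest region was the promoter. The strongest IL1B region, 32967 bp upstream, was lower than solvent in all lists after scaling (-0.27, -0.52 and -0.35), with AUC values of 1810, 2034, 1637 and 1687. In deposited AUC it was above solvent at 6 h and below at 24 and 72 h, so its direction at 6 h depends on the scaling. It lies between the promoter and the upstream elements with the highest ratios. The strongest CXCL8 region, 35920 bp upstream, had a ratio of 0.52, the TNFSF10 region 6420 bp into the gene 0.36 and the PTHLH region 50010 bp downstream -0.16.

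The other genes of these pathways were read in the same way, from lists fixed by name. Among 16 receptor genes, 0, 0 and 2 had a window sum at or above 0.5 at 6, 24 and 72 h and none lay at or below -0.5, beside 14.1% of all genes at or above 0.5 at 72 h. IL6ST, the shared gp130 subunit, had 0.61, TNFRSF11B, a decoy receptor that binds TRAIL, had 0.54 and IL1R1 had 0.46. The lowest were the chemokine receptors CXCR1 (-0.21) and CXCR2 (-0.07) and CSF2RB, the common beta chain of the GM-CSF receptor (-0.04). Whether windows of these receptor genes overlap each other was not examined, so their values cannot be taken as independent.

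Of 35 other cytokine and antagonist genes with a solvent region, 4, 7 and 8 were at or above 0.5 at 6, 24 and 72 h, beside 5.65%, 12.7% and 14.1% of all genes, and none at or below -0.5. The genes at or above 0.5 at 24 and 72 h include CXCL6 (0.98 at 72 h), of whose 15 regions 14 also lie in the CXCL1 window. Overlap between the windows within this list was not examined, so its genes cannot be taken as independent. The highest at 72 h were the chemokine genes CXCL5 (1.34), CCL5 (1.21) and CXCL3 (1.20). The lowest were IL36B (-0.21), CXCL16 (-0.12) and CLCF1 (-0.05). CCL2 had no region in solvent and was not measured. Of 13 NF-κB and STAT regulators none reached 0.5 in either direction. NFKB1 had 0.49, TNFAIP3 0.45 and SOCS3 0.36, while BCL3 had -0.10, SOCS1 -0.09 and NFKB2 -0.08.

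By the distance over the 3 log2 ratios, the gene most like each member among 73 others was CXCL6 for CXCL1 (distance 0.09), IL6ST for both CXCL8 and IL1B (0.13), CXCL8 for PTHLH (0.15), NFKB1 for TNFSF10 (0.12) and TNFAIP3 for IL1A (0.05) and CSF2 (0.08). For IL6 it was CSF1 (0.10), for LIF it was OSM (0.04) and for IL11 it was RELB (0.04). CXCL6 shares 14 regions with CXCL1 and OSM shares 22 with LIF, so those likenesses rest on the same regions. The others share none.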

How the data were processed

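ATAC-seq was done by the Omni-ATAC protocol. According to the submitters' processing notes and the study's methods, the authors used Trimmomatic 0.38, Bowtie2 2.4.5 (GRCh38), Picard and SAMtools 1.4.1, removed duplicates, mitochondrial reads and blacklisted regions, and called peaks with Genrich 0.5 on both replicates of a condition together. The deposited signal of a peak is the AUC, which the authors required to exceed 200 and did not scale between lists. It grows with depth and peak width. The deposited −log10 q values were used only to describe peaks. The number of usable reads behind each list is not given in the sources used here, so the precision of a value is unknown.

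The condition of each list came from its name. Lists were merged at 1 bp of overlap, AUC was summed per region and scaled at regions within 3 kb of a GENCODE 44 TSS, with Python 3.11.15, numpy 2.4.6, pandas 2.3.3 and scipy 1.17.1. Gained, lost, 2-fold higher and 2-fold lower regions were counted with 95% Wilson intervals. The scaling and the 2-fold calls were tested on solvent values altered by known amounts, and merging and windows on hand-made intervals. Gained regions, gene sums and the motif search were not tested in this way. Motifs were searched within 100 bp of the summit of a region's strongest peak, 201 bp in all, and in RefSeq promoters (GRCh38.p14), of which 9 of the 10 genes matched an entry. All coordinates lay within the 23 chromosomes of hg38.

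No test was made. Of the leukocyte markers, 1 is not reported here. The 10 genes, pathway lists, markers and motifs were chosen with earlier results of these data known. Regions were named by rule: each promoter, the 5 strongest gained in all TGFβ1 lists, the 5 highest and 5 lowest ratios at 72 h among regions in all lists, the strongest solvent region per gene, and the 3 highest and 3 lowest genes per pathway list. No region was in solvent alone. Alternatives varied the scaling, the minimum AUC, the window, the assignment, the measure, the list length and the fold.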

Additional observations from a re-analysis of the deposited data

How the results depend on the processing

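Of 228 summary values recomputed under the alternatives, 199 stayed close to the value given above, and of 360 gene sums 357 stayed within a factor of 1.5. The sign of 25 changed, for LIF, IL11 and CSF2 (6 h only), whose ratios were at most 0.08 in the text and 0.14 in size under the alternative. The exceptions to the factor were IL11 with only the regions nearest to its TSS (0.76 at 24 h and 0.65 at 72 h) and CXCL1 at 24 h with AUC per base (1.13). A factor of 1.5 is wider than every scaling shift, so a change of scaling alone could not exceed it. The fold limit cannot alter gene sums, medians or gained and lost regions, and scaling cannot alter gained and lost regions. Such values are among those counted as close, so these counts do not measure how stable the results are. Without scaling between lists, the median log2 ratio of shared regions was 0.52, 0.49 and 0.50 at 6, 24 and 72 h, and at 24 h 14.6% of regions were 2-fold higher and 0.0% 2-fold lower. Scaling at all shared regions in place of proximal ones gave medians of -0.01 at 24 h and 0.11 at 72 h. With a minimum AUC of 400, 0.0%, 0.0% and 1.18% of shared regions were 2-fold higher at the 3 times, against 1.64%, 4.31% and 6.03% of all regions, since the elements with the highest ratios were weak in solvent. A window of 20 kb left 55, 68, 73 and 78 regions in solvent and at 6, 24 and 72 h. Only regions nearest to a member's TSS left 65, 83 and 93 in solvent and at 6 and 24 h, of which 1.54% were 2-fold higher at 6 h and 0.0% lost at 24 and 72 h. AUC per base gave 1.92% 2-fold higher at 6 h. With lists cut to the same length, 11.1%, 11.1% and 14.0% were gained and 3.85%, 6.73% and 7.69% lost at 6, 24 and 72 h, against 8.69%, 11.9% and 13.8% gained and 5.96%, 10.8% and 13.5% lost over all regions, so the number of gained regions depends on the length of the lists. With a 1.5-fold limit, 14.6% at 24 h and 20.4% at 72 h were higher, against 20.3% and 22.9% of all regions. The number of the 10 genes at or above 0.5 at 6 h was 0 in the text, 8 without scaling and 0 to 2 under the other alternatives. At 24 and 72 h it was 2 and 4 in the text and 8 at both times without scaling. The other alternatives gave 0 to 3 at 24 h and 3 to 6 at 72 h. Setting absent peaks to an AUC of 200, which left 3 genes, was chosen after seeing the data. No paired analysis was possible because each list pools its replicates, and for the same reason no replicate could be left out. The usable reads per list are not known here, and a missing peak cannot be told from one below the threshold.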
